A study of Mus musculus with 16 samples.

Results

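Old microglia that had taken up fluorescent amyloid-β 1-42 (Aβ42+) were compared with old microglia of the same pools that had not (Aβ42-). The comparison was described over the genes whose mean in the 8 old libraries reached 20 TPM (reads per gene scaled to gene length and to a fixed total per library), which were 8518 of the 35869 genes in the table. Cars, at 20.0028 TPM, lay just inside this limit, and Pggt1b, at 19.9996 TPM, just outside it. Of these expressed genes, 7145 were protein coding and 409 were microRNAs in the RefSeq annotation. The libraries came from male wild-type C57/Bl6 mice that were 18 months old (old) or 2 months old (young). Cells enriched from brain were incubated with 2.5 μM fibrillar Aβ42 for 2 h. They were then stained, and live CD45int CD11b+ cells were separated by fluorescence. Each library was a pool of 3 mice, and both sorts of a replicate number were taken to come from the same pool, so the old comparison held 4 pairs. Aβ42- cells were exposed to the peptide as well, and no sort of unexposed cells was part of the comparison.

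Microglia are the resident macrophages of the brain. They bind amyloid through scavenger, lectin, complement and lipoprotein receptors, pull it in with an actin-driven cup, and pass it to lysosomes for breakdown. CD45int CD11b+ gates can also take in other myeloid cells that carry CD11b, such as neutrophils, basophils, monocytes and macrophages of the brain borders.

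All 14 defining microglial genes were present in every old library. Their summed level ran from 3025 to 4308 TPM in the Aβ42+ and from 1827 to 3532 TPM in the Aβ42- sort. Genes of mature neutrophils summed to more than this in every old library. Their 16 markers summed to between 3838 and 8209 TPM in the Aβ42+ sort and to between 9239 and 12250 TPM in the Aβ42- sort, with no overlap. The 10 markers of granulocyte precursors reached 281.6 to 1367 TPM and 2709 to 4844 TPM, and the 13 listed markers of T and NK cells 225.0 to 330.5 TPM and 721.0 to 920.2 TPM. Of these 13, only Gzma, Gzmb, Nkg7 and Ccl5 reached a mean of 20 TPM. Nkg7 is counted in both lists, so the 2 sums are not separate. No marker of these lists was at 0 in any old library. In bulk RNA, fewer cells of a type and less RNA per cell cannot be told apart.

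A second property of the libraries also differed between the sorts. The background level, taken here as the trimmed mean over 1451 receptor genes of smell and pheromone sensing, which microglia are not known to use, was 1.27, 5.24, 11.57 and 4.98 TPM in the Aβ42+ libraries of replicates 1 to 4 and 0.328, 0.779, 2.89 and 1.25 TPM in their Aβ42- partners. It was lower in the Aβ42- sort of every pool. The Aβ42+ library of replicate 3 stood apart, with 64.54% of its TPM in the expressed genes, against 81.4 to 91.73% in the other seven. The median log2 fold change (Aβ42- over Aβ42+) was 0.26 over the expressed genes and -0.893 over all 32429 genes tested. TPM sums to the same total in every library, so a larger share of some genes leaves a smaller share for the rest. Directions are therefore given on the deposited scale and, where it matters, after rescaling with TMM factors (trimmed mean of M values, computed from the expressed genes), which put the median of the expressed genes at -0.01.

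On the deposited scale, 2633 of the 8512 expressed genes tested were higher and 1179 lower in Aβ42- microglia at an adjusted p of 0.05 (limma with the pool as a block). Of all genes tested, 10.7% were higher and 47.2% lower. With TMM factors the split was 1712 higher and 2006 lower, against 6.37% and 52.8% of all genes tested. Without replicate 3 it was 2889 and 1788 on the deposited scale, against 14.9% and 36.9% of all genes tested, and without the replicate block it was 1250 and 651 (4.74% and 8.23% of all genes tested). With background as a model term, which left 2 residual degrees of freedom, 0 genes were called in limma in either direction, with 152 expressed genes at an unadjusted p under 0.05. A fit of this size says little of any gene, and the part of the background level in the differences was not tested otherwise. The weight below is placed on the 948 expressed genes called in the same direction on 4 scalings, namely deposited TPM, TMM factors, quantile normalization and TPM after subtraction of the background level. These were 449 higher and 499 lower genes, where 1.67% and 2.78% of all genes tested met the same rule. They are called concordant below, a word that refers to these 4 scalings and not to the fit with background as a term.

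The 12 largest concordant rises in Aβ42- cells were picked among protein-coding genes with no overlap between the sorts and the same direction in 4 pools. Of all genes tested, 21.9% had no overlap, in either direction. These rises included proteases and other granule proteins of basophils, mast cells, eosinophils, neutrophil precursors and cytotoxic lymphocytes. Prss34 (chr17:25298394-25300168, mm10), a basophil and mast cell protease, was at 2.46, 21.96, 11.04 and 3.602 TPM in the Aβ42+ libraries of replicates 1 to 4 and at 331, 238, 282 and 272 TPM in the Aβ42- libraries. The log2 fold change was 5.10 ± 0.513 (SE, adjusted p = 0.00399, limma). Mcpt8, a basophil protease (chr14:56082163-56085499), was at 4.64, 11.8, 9.47 and 2.12 TPM against 234, 183, 208 and 193 TPM. Every Aβ42- library exceeded 180 TPM for this gene while no Aβ42+ library passed 12 TPM. The genes Cpa3 (mast cell carboxypeptidase), Fcer1a (the alpha chain of the IgE receptor) and Cyp11a1 (the enzyme that begins steroid synthesis) had log2 fold changes of 3.32, 3.10 and 3.30.

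Genes known from other blood cells were also among these rises. Ear1 and Ear6, ribonucleases of eosinophils and related to each other in sequence, had log2 fold changes of 4.42 ± 0.273 and 4.15 ± 0.329 (SE). Reads of such close copies can be shared, so the split between them is uncertain. Ctsg, the cathepsin of primary granules, was at 77.8, 30.3, 19.6 and 22.1 TPM in Aβ42+ and at 519, 559, 263 and 437 TPM in Aβ42- libraries. Gzmb and Gzma, granzymes of cytotoxic lymphocytes, had log2 fold changes of 3.67 and 3.36, Nkg7, a granule membrane protein, 3.53, and Ms4a3, a marker of granulocyte and monocyte precursors, 3.22. Replicate 1 of the Aβ42+ sort held the most Ms4a3 of its group, at 75.87 TPM against 22.8 to 24.4 TPM.

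**Figure D1:**
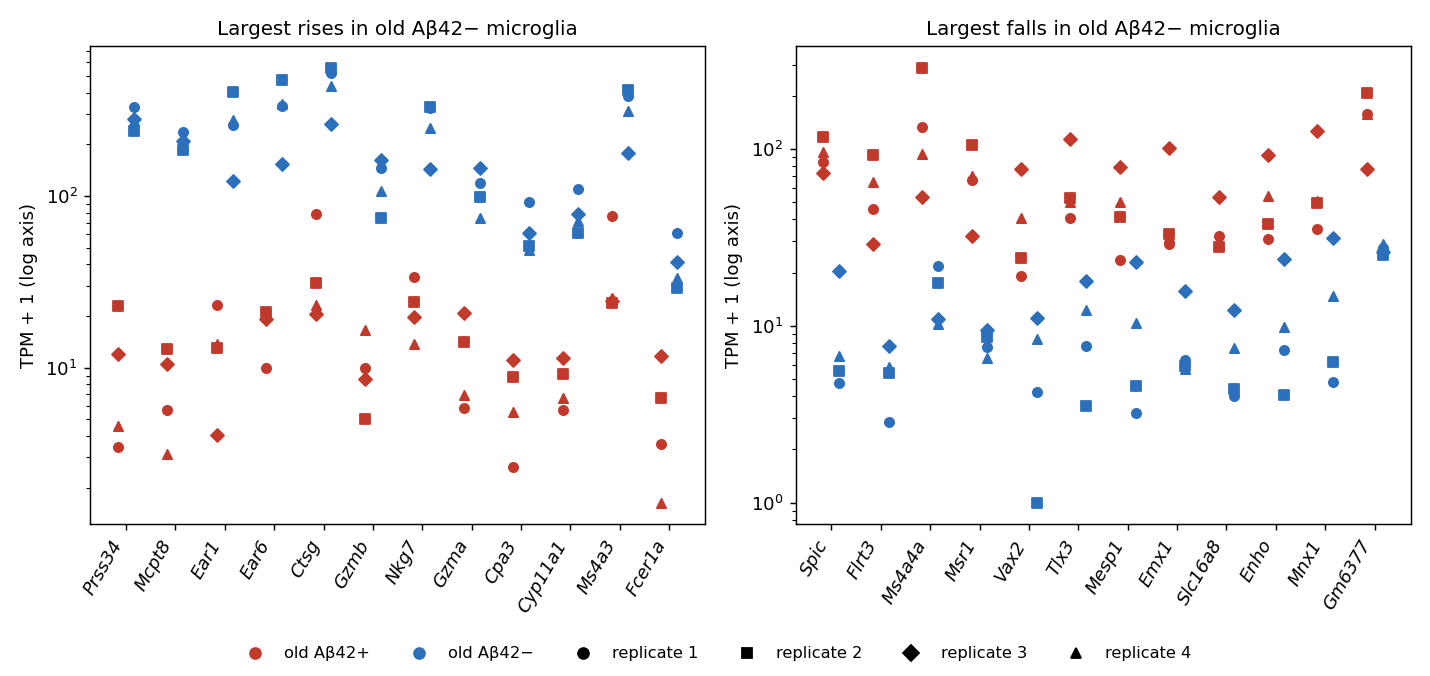
TPM + 1 on a log axis for the 12 largest concordant rises and the 12 largest concordant falls, with each old library as a point (red Aβ42+, blue Aβ42-, symbol by replicate). The genes were picked for no overlap between the sorts, so in each the 4 Aβ42- libraries lie apart from the 4 Aβ42+ libraries. Prss34 spans 2.46 to 331 TPM.

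All 9 granulocyte precursor genes that were expressed rose, with a median log2 fold change of 2.80 (2.53 with TMM factors), and they rose in young mice too. This group makes the enzymes of primary granules. Mpo, myeloperoxidase, was at 219, 89.1, 51.0 and 56.5 TPM in Aβ42+ and at 699, 819, 528 and 688 TPM in Aβ42- libraries (log2 fold change 2.95 ± 0.332 SE, adjusted p = 0.00405, limma). Prtn3, proteinase 3, went from 40.15 to 188.1 TPM in the Aβ42+ sort up to 402.3 to 707.9 TPM in the Aβ42- sort. Of the mature neutrophil genes, 9 of 16 rose and none fell, on both scales, with a median of 1.2 (0.929 with TMM factors). Without replicate 3 the median was 0.698 (0.517 with TMM factors), with the count at 9, and 1 of the 16 was a concordant rise. S100a8, a calcium-binding protein that neutrophils hold in great amount, was at 893 to 1251 TPM in Aβ42+ and 1071 to 1628 TPM in Aβ42- libraries and was not called (log2 fold change 0.40, adjusted p = 0.136, limma). The part of cell composition in these rises was not tested.

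The promoters of Mpo and Prtn3 are shown because they are abundant members of this group. They are the 250 bases before the start of each gene in RefSeq (GRCm38.p6), 5′ to 3′ on the gene's strand, with matches to GAGGAAGT, a core bound by PU.1 and other ETS factors, in capitals (both strands searched). The motif was chosen after the values were seen.
Mpo promoter, chr11:87793534-87793783, plus strand: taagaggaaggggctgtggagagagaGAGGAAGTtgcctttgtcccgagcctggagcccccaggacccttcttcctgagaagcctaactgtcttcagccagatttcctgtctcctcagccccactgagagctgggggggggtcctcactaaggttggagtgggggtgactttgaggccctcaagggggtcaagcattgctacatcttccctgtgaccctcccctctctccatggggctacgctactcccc
Prtn3 promoter, chr10:79879417-79879666, plus strand: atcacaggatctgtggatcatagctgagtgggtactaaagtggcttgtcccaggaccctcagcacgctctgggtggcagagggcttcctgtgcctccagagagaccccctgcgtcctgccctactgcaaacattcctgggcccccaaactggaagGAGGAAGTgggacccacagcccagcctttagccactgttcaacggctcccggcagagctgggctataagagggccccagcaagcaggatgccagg
The motif was found in 3 of 8 promoters of the risen granulocyte precursor genes, in 2.44% of all 27025 promoters and in 2.89% of those of the expressed genes. A match describes letters and does not show binding.

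Cell cycle and DNA replication genes formed the broadest rise. Of 51 expressed genes, 43 rose and none fell on the deposited scale (median log2 fold change 1.36), and 37 rose and 2 fell with TMM factors (median 1.10), while the median over all expressed genes was 0.26 and -0.01. Concordant rises numbered 24. Rrm2, the small subunit of ribonucleotide reductase, was at 140.8, 90.92, 59.61 and 88.56 TPM in Aβ42+ and at 371.7, 416.9, 184.3 and 360.2 TPM in Aβ42- libraries (log2 fold change 1.80 ± 0.181 SE, adjusted p = 0.00399, limma). Cdk2, a kinase of the S phase entry, and Mcm5, a subunit of the replicative helicase, had log2 fold changes of 1.71 and 1.64. Within pools the median difference of the list was 1.15, 1.56, 0.249 and 1.41 on the TMM scale for replicates 1 to 4, so the pool of replicate 3 showed the smallest. In young mice 20 of the list rose and none fell. The granulocyte precursor markers moved alongside, and their part in this rise was not tested.

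The promoters of Top2a, which untangles DNA, and Ccnb2, a mitotic cyclin, are shown as cell cycle genes that hold both CCAAT, bound by NF-Y, and TTTGAA, the core of the cell cycle homology region. Both genes and both motifs were chosen after the values were seen. Capitals mark each match on either strand in the 250 bases before the start that the RefSeq promoter table uses. For Top2a the last bases shown lie inside the annotated gene, whose outer end is at 99024199.
Top2a promoter, chr11:99024190-99024439, minus strand: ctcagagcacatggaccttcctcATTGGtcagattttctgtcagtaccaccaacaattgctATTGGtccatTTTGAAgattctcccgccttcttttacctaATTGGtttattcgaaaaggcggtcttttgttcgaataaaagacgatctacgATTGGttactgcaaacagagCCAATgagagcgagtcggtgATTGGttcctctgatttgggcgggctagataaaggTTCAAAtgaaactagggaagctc
Ccnb2 promoter, chr9:70421555-70421804, minus strand: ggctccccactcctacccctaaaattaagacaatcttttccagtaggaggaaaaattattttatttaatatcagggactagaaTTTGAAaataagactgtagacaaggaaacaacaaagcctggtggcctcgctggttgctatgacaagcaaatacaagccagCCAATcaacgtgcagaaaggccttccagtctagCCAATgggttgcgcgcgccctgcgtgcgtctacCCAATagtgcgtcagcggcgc
CCAAT was found in 30 of 38 promoters of the risen cell cycle genes and in 34.5% of all promoters. TTTGAA was found in 12 of 38 and in 16.3%. Top2a was at 21.19 to 37.42 TPM in Aβ42+ and 44.51 to 104.2 TPM in Aβ42- libraries. For Ccnb2 the ranges were 62.47 to 79.29 TPM and 81.86 to 207.9 TPM, and its call was lost with TMM factors (adjusted p = 0.0581, limma).

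Among the falls, a group of macrophage genes was lower in Aβ42- cells of both ages. Msr1 (chr8:39543232-39642750), the class A scavenger receptor that binds modified lipoproteins and amyloid fibrils, was at 65.9, 104.1, 31.16 and 69.53 TPM in Aβ42+ and at 6.629, 7.615, 8.511 and 5.567 TPM in Aβ42- libraries. The lowest Aβ42+ value lay above the highest Aβ42- value, as the rule that picked this gene required. The log2 fold change was -2.98 (95% CI -3.77 to -2.19, adjusted p = 0.00399, limma) in old and -2.30 in young microglia (adjusted p = 0.00405, limma). Spic, a transcription factor of iron-recycling macrophages, was at 83.1, 116, 71.9 and 95.2 TPM against 3.75, 4.55, 19.5 and 5.78 TPM. Its fall was -3.55 ± 0.431 (SE) on the log2 scale. Ms4a4a, a membrane protein of macrophages, was at 131, 287, 52.2 and 92.5 TPM against 20.7, 16.4, 9.94 and 9.19 TPM. Flrt3, an adhesion protein with leucine-rich repeats, had a log2 fold change of -3.38, and Gm6377, a predicted gene on the X chromosome, -2.39.

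Cd36, the class B scavenger receptor, was at 20.5, 25.2, 10.2 and 17.7 TPM in Aβ42+ and 1.15, 0.995, 5.24 and 1.95 TPM in Aβ42- libraries (log2 fold change -2.64 ± 0.487 SE, adjusted p = 0.00834, limma). It fell in young mice as well (-2.54), but its mean over the old libraries lies below 20 TPM, outside the expressed genes. Gpnmb, a glycoprotein of lipid-laden and disease-associated macrophages, was at 258, 299, 129 and 239 TPM against 51.0, 50.2, 45.9 and 31.5 TPM. Mrc1, the mannose receptor of border macrophages, was at 31.0 to 35.8 TPM against 6.54 to 11.2 TPM, and Apoe, the lipid carrier, at 201 to 266 TPM against 52.6 to 115 TPM. Mmp13 (a collagenase) and Mnda (a nuclear protein of myeloid cells), named after their values were seen, had log2 fold changes of -2.14 and -1.92. The genes of these falls other than Cd36 are part of 13 concordant falls that were also called lower in young mice. The 3 expressed markers of border macrophages had a median log2 fold change of -0.879, with 2 called lower, and the summed level of the whole 10-gene list was 312.1 to 467.9 TPM in Aβ42+ and 173.3 to 228.3 TPM in Aβ42- libraries. Its part in the falls was not tested.

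**Figure D2:**
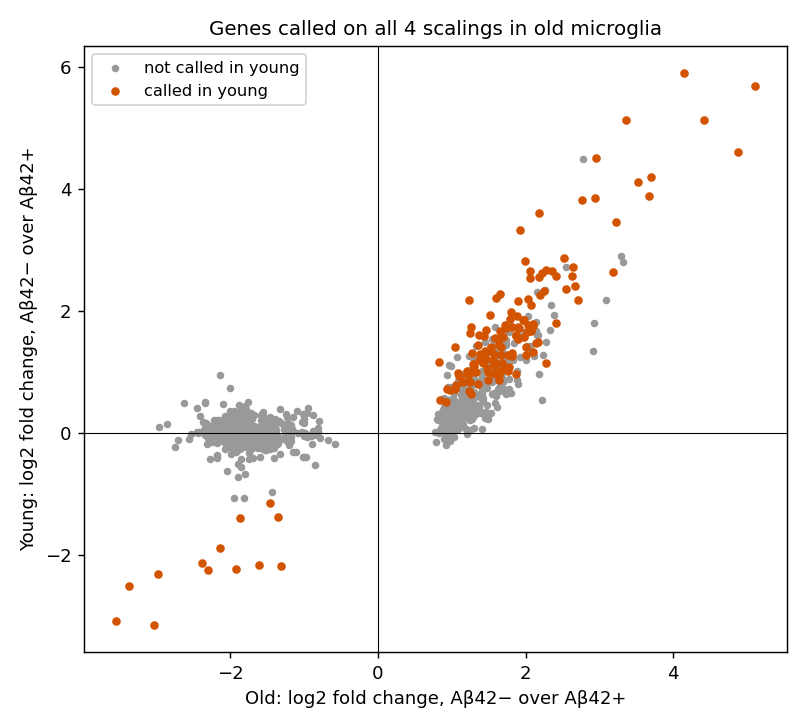
Log2 fold change (Aβ42- over Aβ42+) in old (x axis) and young microglia (y axis) for the concordant genes, one point per gene, orange where young microglia passed the test too. Rises lie along a rising line (439 of 449 higher at both ages), while most falls lie near 0 in young mice.

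The concordant rises and falls behaved differently in young mice. Of the 449 rises, 133 (29.6%) were called higher in young mice, none was called lower, and the median log2 fold change was 1.37 in old and 0.835 in young mice. Of the 499 falls, 13 (2.61%) were called lower in young mice, and the median was -1.89 in old and 0.00 in young mice. Over all genes tested in young mice, 1.41% were called higher and 0.43% lower. Across the 8 old libraries the log2 level of the falls had a median correlation of 0.929 with the log2 background level, and 378 of 499 reached 0.9. The rises had a median of -0.867. These correlations are descriptions over 8 libraries that share pools, sort and scaling.

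Of the 499 concordant falls, 50 were genes of developmental transcription factor families. Homeobox, forkhead and Sox family genes, grouped by symbol after their values were seen, made up 65 expressed genes, of which 56 were lower and 6 higher in old Aβ42- microglia (57 lower with TMM factors), where 47.2% and 10.7% of all genes tested were. In young mice limma called 0 of them (4 at an unadjusted p under 0.05), and their median log2 fold change was -1.96 in old and 0.03 in young mice. Their median level was 33.9, 44.8, 96.6 and 47.5 TPM in the Aβ42+ libraries and 7.3, 8.22, 30.2 and 15.1 TPM in the Aβ42- libraries of replicates 1 to 4. Their levels had a median correlation of 0.929 with the background level. The Aβ42+ library of replicate 1 (background 1.27 TPM) had a median of 33.9 TPM. The Aβ42- libraries of replicates 4 (background 1.25 TPM) and 3 (2.89 TPM) had medians of 15.1 and 30.2 TPM. These are values of single libraries from different pools. Within this group, Vax2, Tlx3, Emx1 and Mnx1, which pattern the eye, hindbrain, cortex and motor neurons, had log2 fold changes of -2.97, -2.75, -2.46 and -2.41. Mesp1 (early mesoderm), Slc16a8 (a lactate carrier of the retinal pigment epithelium) and Enho (a secreted peptide) fell by 2.54, 2.44 and 2.43 on the log2 scale. Nefl and Olig2, the most abundant expressed markers of neurons and oligodendrocytes, fell by 2.16 and 2.09. The part of the background level in these falls was not tested.

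**Figure D3:**
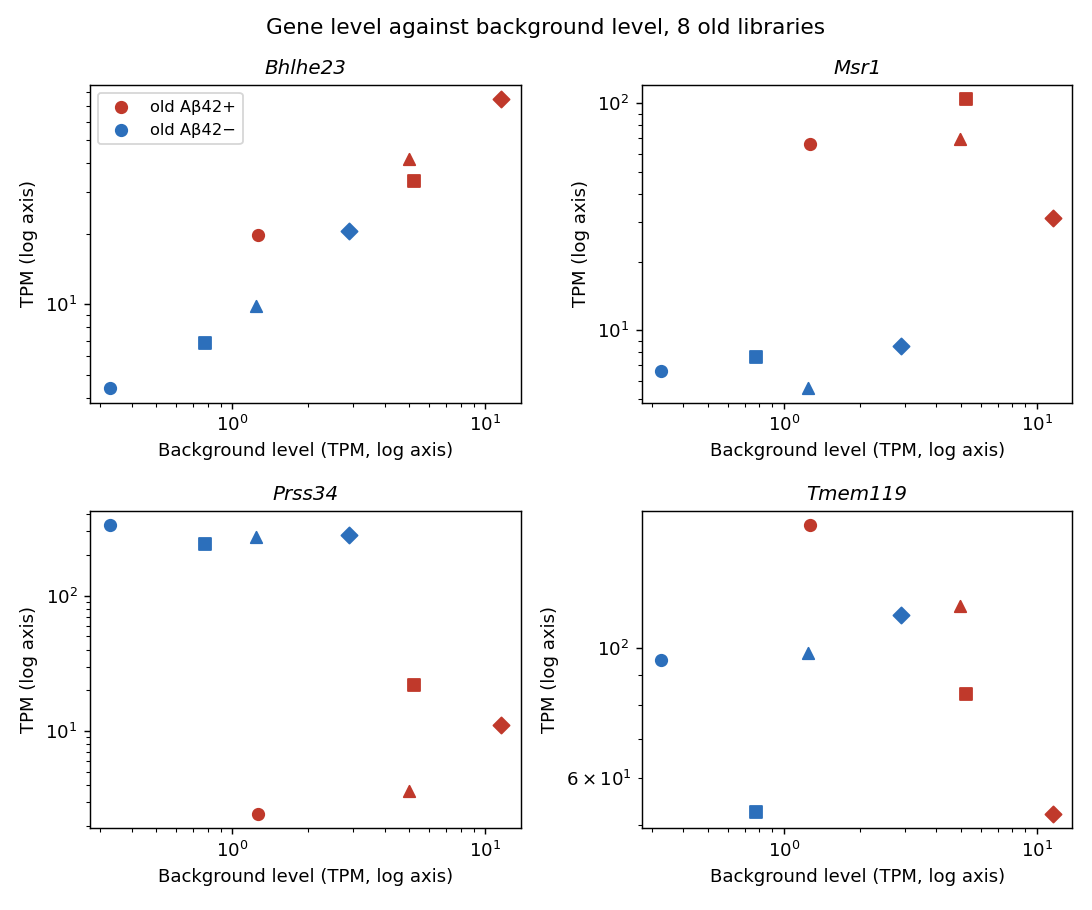
TPM of 4 genes against the background level in the 8 old libraries, both on log axes (red Aβ42+, blue Aβ42-, symbol by replicate). In the libraries of near-equal background (Aβ42+ replicate 1 and Aβ42- replicate 4), Bhlhe23 is at 19.8 and 9.789 TPM, Msr1 at 65.9 and 5.567 TPM, and Prss34 at 2.46 and 272 TPM. These are single libraries from different pools.

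Interferon genes were split. Of 32 expressed genes, 5 rose and 10 fell on the deposited scale, and 2 rose and 14 fell with TMM factors. Among all expressed genes the shares were 30.9% and 13.9%, and 20.1% and 23.6% with TMM factors. Rsad2 (viperin, an antiviral enzyme) was at 83.6, 113, 89.8 and 147 TPM in Aβ42+ and at 34.5, 46.6, 39.8 and 48.8 TPM in Aβ42- libraries (log2 fold change -1.31 ± 0.139 SE, adjusted p = 0.00399, limma). Ifi27l2a, a mitochondrial interferon-induced protein, was at 100 to 145 TPM against 39.0 to 61.1 TPM, and Zbp1, a sensor of Z-form nucleic acids, at 27.6 to 44.5 TPM against 12.6 to 14.9 TPM. Ddx58, the RNA sensor RIG-I, moved the other way, from 27.59 to 38.5 TPM up to 48.2 to 96.9 TPM (log2 fold change 1.10). Rsad2 and Ifi27l2a are concordant falls and Ddx58 is a concordant rise.

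The promoters of Rsad2 and of Isg15, a ubiquitin-like protein named after its values were seen, show the interferon-stimulated response element as GAAA repeated after 2 bases, in capitals on either strand. Isg15 holds 3 overlapping matches. The motif was chosen after the values were seen.
Rsad2 promoter, chr12:26456453-26456702, minus strand: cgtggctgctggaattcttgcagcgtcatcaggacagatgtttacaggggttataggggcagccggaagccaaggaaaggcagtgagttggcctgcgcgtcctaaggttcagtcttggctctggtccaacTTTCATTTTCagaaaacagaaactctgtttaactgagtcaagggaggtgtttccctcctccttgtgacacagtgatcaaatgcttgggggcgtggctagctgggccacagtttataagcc
Isg15 promoter, chr4:156200819-156201068, minus strand: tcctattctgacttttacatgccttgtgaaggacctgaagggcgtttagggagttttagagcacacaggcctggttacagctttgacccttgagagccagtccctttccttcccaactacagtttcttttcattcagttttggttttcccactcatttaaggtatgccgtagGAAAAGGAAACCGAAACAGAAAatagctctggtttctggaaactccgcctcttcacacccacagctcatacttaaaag
Of the 10 fallen interferon genes, 4 had a promoter in the RefSeq table and 3 of these held the motif (Ifit1, Isg15 and Rsad2). None of the 4 promoters among the 5 risen genes held it. It was found in 3.04% of all promoters. Isg15 was at 94.7 to 125.3 TPM in Aβ42+ and 39.38 to 86.81 TPM in Aβ42- libraries.

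The median of the genes that define microglia lay lower in Aβ42- cells in every pool except that of replicate 3, where it was 0.545 on the deposited and 0.00579 on the TMM scale. Limma called 0 of the 14 on the deposited scale (3 at an unadjusted p under 0.05, median log2 fold change -0.481), and 9 were lower with TMM factors (median -0.744). Tmem119 was at 162, 83.5, 52.2 and 118 TPM in Aβ42+ and 95.7, 52.6, 114 and 98.1 TPM in Aβ42- libraries, with a log2 fold change of -0.14 (95% CI -0.934 to 0.652). It was lower in the Aβ42- sort of every pool except that of replicate 3, where it was higher. P2ry12, the ADP receptor of microglial processes, had the same order, with a log2 fold change of -0.19 (95% CI -0.915 to 0.527). Without replicate 3 both were called lower, at -0.56 and -0.57 (adjusted p = 0.0228 and 0.0164, limma), and 13 of the 14 defining genes were called lower. Cx3cr1 (the fractalkine receptor), Csf1r and Trem2 were at -0.48, -0.41 and -0.60 and were called lower with TMM factors and without replicate 3. The median difference of mature neutrophil genes was largest in the pool of replicate 3 (1.91 on the TMM scale), and its part in these values was not tested.

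**Figure D4:**
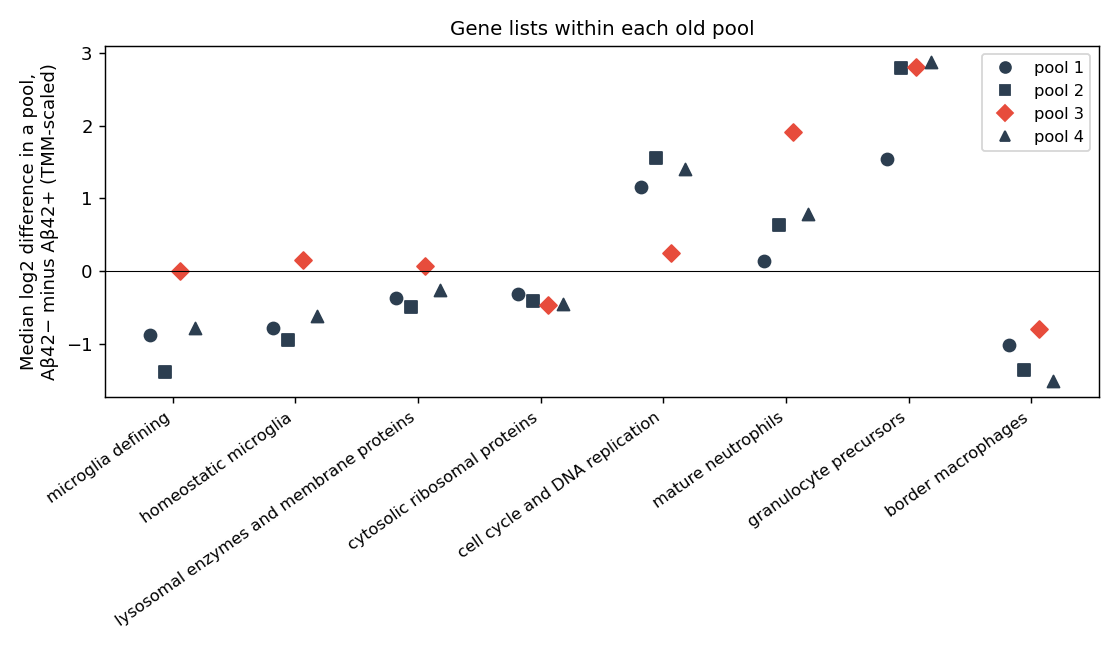
Median log2 difference (Aβ42- minus Aβ42+, TMM-scaled) of 8 gene lists within each old pool, one point per pool with the pool of replicate 3 in red. Granulocyte precursors lie above 1.5 in all 4 pools, while the defining and homeostatic microglia lists lie near 0 in the pool of replicate 3 and below -0.6 in the others.

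Of 38 expressed phagocytic and amyloid receptors, 9 rose and 3 fell on the deposited scale and 8 rose and 15 fell with TMM factors. Shares among all expressed genes, for this and the next lists, were 30.9% higher and 13.9% lower, and 20.1% and 23.6% with TMM factors. Of the 38 receptors, 1 rise (Fcgr4) and 2 falls (Msr1 and Mrc1, given above) were concordant. Fpr1, the formyl peptide receptor, rose from 62.2 to 299 TPM up to 411 to 646 TPM (log2 fold change 1.59 ± 0.312 SE), and Fcgr4, an activating Fc receptor, rose by a log2 fold change of 1.24. Cd47, the signal that blocks phagocytosis, rose with a log2 fold change of 1.00, and Axl, a receptor for phosphatidylserine bridges, fell by 0.97. The calls of Cd47 and Axl were lost without the replicate block, with quantile normalization and with the background subtracted. Mertk, its relative, was at -0.00 (95% CI -0.953 to 0.947), Tyrobp, the TREM2 adaptor, at 0.07 (-0.403 to 0.55), Cd68 at -0.39 (-0.982 to 0.194) and Itgam, the CD11b chain used for the gate, at 0.86 (0.0802 to 1.63), none of them called on the deposited scale. Cd68 was called lower with TMM factors and without replicate 3 (-0.66 in both), and Itgam higher without replicate 3 (0.46). Of 47 lysosomal genes, 8 rose and 5 fell (3 and 18 with TMM factors), with the fall led by the cathepsins Ctss (-0.65) and Ctsf (-1.10), and none of the 47 was concordant. The 50 genes of the uptake machinery showed 8 rises and 0 falls (limma; 7 and 9 with TMM factors), and the 16 subunits of the vacuolar ATPase 2 rises and 0 falls (1 and 0 with TMM factors).

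Disease-associated microglial genes were split by gene as well. Of 29 expressed, 1 rose and 5 fell, and 1 rose and 18 fell with TMM factors. The rise was Cst7, cystatin F, at 35.2 to 62.5 TPM in Aβ42+ and 82.8 to 264 TPM in Aβ42- libraries (log2 fold change 1.74 ± 0.204 SE, adjusted p = 0.00417, limma). Gpnmb and Apoe, given above, were the concordant falls, and Lgals3bp, a galectin ligand, fell by 0.97. Of 29 homeostatic genes, 3 rose and 1 fell, the fall being Cst3 (cystatin C, -0.54), against 2 and 15 with TMM factors. For the lists of this paragraph, the shares among all expressed genes were 30.9% higher and 13.9% lower, and 20.1% and 23.6% with TMM factors. Lipid and cholesterol genes counted 9 rises and 3 falls of 29 (3 and 9 with TMM factors), near these shares on the deposited scale. Fdps, an enzyme of the mevalonate pathway, was at 1.30 and Pltp, the phospholipid transfer protein, at -1.38. Cst7 and Fdps were concordant rises, while Lgals3bp, Cst3 and Pltp were not concordant.

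Cytokine and metabolic genes were moderate. The expressed genes as a whole rose in 30.9% and fell in 13.9% on the deposited scale, and in 20.1% and 23.6% with TMM factors. Of 36 inflammatory genes 4 rose and 3 fell (3 and 16 with TMM factors). The falls were Cxcl1, a neutrophil attractant (49.7 to 80.2 TPM against 4.14 to 22.0 TPM, log2 fold change -2.22, and -2.38 in young mice), Il10, an anti-inflammatory cytokine (-1.5), and Ccl7, a monocyte attractant (-1.497). Glycolysis genes rose in 11 of 22 with no falls, and in 7 with 2 falls under TMM factors, with Slc2a3 (a glucose carrier, 1.82), Pfkfb4 (1.68) and Hk2 (hexokinase 2, 0.95) leading. Amyloid precursor processing genes rose in 6 and fell in 2 of 19 (4 and 3 with TMM factors). On the deposited scale these counts lie near the shares of all expressed genes. Sorl1, a sorting receptor for the precursor, went from 48.8 to 216 TPM up to 249 to 356 TPM (1.53). Aph1b, a subunit of γ-secretase, rose by 1.79 and Ide, the insulin-degrading enzyme that also cleaves Aβ, by 0.83 on the log2 scale, a call that was lost without the replicate block, with quantile normalization and with the background subtracted. Dusp6, a phosphatase of ERK, rose by 1.10 and was 1 of 4 rises and 0 falls among 32 immediate early genes (limma; 3 and 13 with TMM factors). Tap2, a peptide transporter of antigen presentation, rose by 0.81, 1 of 3 rises and 2 falls among 19 genes (2 and 9 with TMM factors). Of the genes named in this paragraph, only Tap2 was concordant.

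Counts in larger protein families moved with the scale. So did the shares of all expressed genes, at 30.9% higher and 13.9% lower on the deposited scale and 20.1% and 23.6% with TMM factors. Cytosolic ribosomal proteins had 0 rises and 3 falls of 83 (limma; median -0.146) on the deposited scale and 0 and 69 with TMM factors (median -0.415). Heat shock genes had 1 and 0 of 26, against 0 and 13, respiratory chain genes 10 and 0 of 77, against 3 and 3, proteasome subunits 3 and 0 of 37, against 0 and 5, and complement genes 2 and 0 of 12, against 1 and 4. List counts moved with 1 pool as well. Without replicate 3, rises and falls on the deposited scale (limma) were 11 and 17 of 38 receptors and 7 and 22 of 47 lysosomal genes. They were 1 and 20 of 29 disease-associated and 3 and 22 of 29 homeostatic genes. Inflammatory genes had 3 and 18 of 36, immediate early 4 and 14 of 32, lipid 8 and 10 of 29 and antigen presentation genes 3 and 7 of 19. Ribosomal genes had 0 and 29 of 83 and heat shock genes 1 and 13 of 26. In this fit 34.1% of the expressed genes rose and 21.1% fell, against 14.9% and 36.9% of all genes tested.

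**Figure D5:**
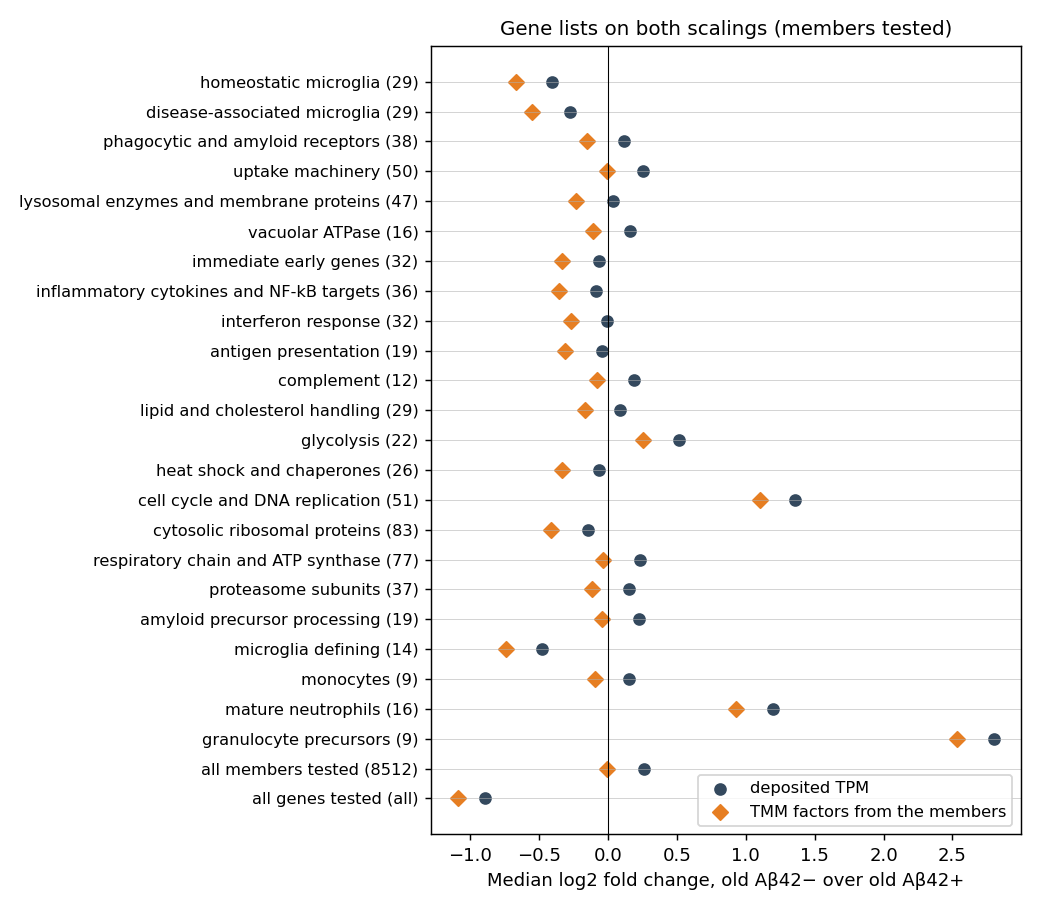
Median log2 fold change (old Aβ42- over old Aβ42+) of each gene list with 9 or more expressed genes, on deposited TPM (dark circles) and with TMM factors (orange diamonds). Granulocyte precursors (2.80 and 2.53) and cell cycle genes (1.36 and 1.10) lie to the right on both scales, while many lists cross 0 between the scales.

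Whether the sort difference in old mice differed from that in young mice was tested as the interaction of age and sort over all 16 libraries. It was called for 2371 of 8518 expressed genes, 1506 with a higher and 865 with a lower difference in old mice, where 5.32% and 31.6% of all genes tested were called. On all 4 scalings 132 expressed genes were called in the same direction, 2 with a higher and 130 with a lower difference in old mice (0.0087% and 0.455% of all genes tested), and without replicate 2 or replicate 4, 0 expressed genes were called (limma; 2191 and 2156 at an unadjusted p under 0.05). Genes with the lowest adjusted p included Bhlhe23 (-2.13), Cldn23 (-2.20) and Htra1 (-2.27, adjusted p = 0.00855, limma), all of them concordant falls, with correlations of 0.97, 0.925 and 0.927 with the background level. For Msr1, Prss34 and Mpo the interaction was -0.68, -0.60 and -0.92 and was not called (adjusted p = 0.176, 0.497 and 0.104, limma).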

How the data were processed

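Bulk mRNA was sequenced from 16 libraries, of which the 8 old ones carry the comparison and all 16 the interaction of age and sort. The authors trimmed reads with Trim Galore 0.4.2 and cutadapt 1.9.1, aligned them with STAR 2.5.2a to mm10, removed duplicates with Picard 1.89, counted the remaining reads against RefSeq, and deposited TPM (versions from the submitters' processing notes). TPM holds no depth, so no counting interval or detection limit is given, and tests made for counts were not used.

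A gene was fitted where 4 or more of the 8 libraries held 1 TPM or more, on log2(TPM + 1) with limma 3.58.1 in R 4.3.3, two-sided, with a mean-variance trend, the pool as a block and Benjamini-Hochberg adjustment over all 32429 genes tested. Fold changes are on this scale, which understates changes of low genes. Same-numbered sorts were taken to share a pool, since the sample titles give them the same number but do not name a pool. Residuals of same-numbered libraries correlated at 0.438, 0.132, 0.397 and 0.0584 across genes, although 2 of the 8 libraries correlated more with one of another number (0.24 and 0.0845). With 4 pairs an exact sign-flip test cannot go below p = 0.125, so none is given for single genes. Whether the pools are independent beyond this is as the labels give it.

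The genes, lists and tests were chosen with earlier results of these data known. Named genes were the 12 largest rises and falls among protein-coding genes called on all 4 scalings without overlap and with the same direction in 4 pools, up to 3 of lowest adjusted p per direction and the 3 most abundant in each list, a fixed set of microglial and receptor genes, the 6 lowest adjusted p of the interaction, and the most abundant marker of each other cell type. Not every gene under the rule is printed, and 1 is not reported here. Genes outside it (Top2a, Ccnb2, Prtn3, Isg15, Mmp13, Mnda) were chosen after their values were seen. The scripts were tested on simulated data, where estimates were unbiased and no unchanged gene was called. The simulated noise was drawn for each gene on its own. It therefore says nothing of false calls from a difference that many genes of a library share, such as one in background level. Most changes of 1 on the log2 scale and many of the larger ones were missed when few genes changed, so a gene that was not called is not shown to be unchanged. Promoters, motifs and gene positions come from RefSeq, GRCm38.p6, in which 8310 of the 8518 expressed genes matched by symbol or synonym.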

Additional observations from a re-analysis of the deposited data

Results flagged for a closer look

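Of 190 sets of 4 old libraries tested for a library far from the other three (Dixon's criterion, which chance meets in about 1 of 20), 13 met it. In the Aβ42+ sort these were the highest libraries for Ms4a3 (75.87 TPM), Tlx3 (113.1 TPM), Emx1 (99.78 TPM) and Slc16a8 (52.8 TPM), and the lowest for Ddx58 (27.59 TPM) and Csf1r (85.55 TPM). In the Aβ42- sort they were the highest for Spic (19.54 TPM), Emx1 (14.77 TPM) and Olig2 (30.93 TPM) and the lowest for Zbp1 (12.57 TPM). The summed markers of endothelium and mural cells were high in 1 Aβ42+ library (221.9 TPM) and low in 1 Aβ42- library (123.7 TPM), and those of neurons high in 1 Aβ42- library (140.8 TPM). All of these except Ms4a3, Zbp1 and the low sum of endothelium and mural cells were libraries of replicate 3, whose sorts had the highest background levels of their groups.

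The interaction of age and sort was called in limma for 21 of the 80 genes named in the text. The same fit called 27.8% of the expressed genes and 36.9% of all genes tested, so the named genes do not stand out. Without replicate 2 or replicate 4 it called 0 expressed genes. In log2 units, old minus young, the sort difference was higher in old mice for Cdk2 (0.64), Cst7 (1.06), Pfkfb4 (0.64), Ide (0.70), Dusp6 (0.68), Tap2 (0.60), Ddx58 (0.75) and Rsad2 (0.87). Since the median over the expressed genes was 0.288, part of each of these values is shared with most genes. It was lower in old mice for Fpr1 (-1.08), Vax2 (-3.07), Tlx3 (-2.53), Mesp1 (-2.53), Emx1 (-2.48), Slc16a8 (-2.44), Enho (-2.44), Mnx1 (-2.69), Bhlhe23 (-2.13), Cldn23 (-2.20), Htra1 (-2.27), Nefl (-2.30) and Olig2 (-2.0). For Rsad2 the fall in Aβ42- cells was smaller in old (-1.31) than in young mice (-2.18), and for Fpr1 the rise was smaller in old (1.59) than in young mice (2.67).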

How the results depend on the processing

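The counts moved with scaling. Higher and lower expressed genes, 2633 and 1179 on the deposited scale, were 1712 and 2006 with TMM factors, 995 and 1025 with quantile normalization, 617 and 500 with the background subtracted, 0 and 0 with it as a covariate, and 1487 and 276 above a mean of 50 TPM (3215 and 2915 above 10 TPM). Without the replicate block they were 1250 and 651. Leaving out 1 replicate at a time gave 1449 to 2889 higher and 909 to 1788 lower genes, with the lowest higher counts without replicate 2 (1449) and replicate 4 (1478), and with TMM factors and without replicate 3, chosen after the data were seen, 2219 and 2549. The interaction called 2371 expressed genes, 202 with quantile normalization, 242 with the background subtracted, 2 without the replicate block and 0 to 2412 on leaving out 1 replicate at a time (0 without replicate 2 or 4, 1413 without replicate 3). Signs of the 80 named genes held under an added 0.1 TPM, no filter, all 16 libraries, quantile normalization and no replicate block. With background as a model term (2 residual degrees of freedom) no named gene was called and these changed sign: Ms4a3 (-0.299), Top2a (-0.126), Ccnb2 (-1.59), Cst7 (-0.316), Hk2 (-0.279), Aph1b (-0.166), Fdps (-0.431), Ms4a4a (0.814), Apoe (1.11), Cd36 (1.19), Axl (1.4), Mmp13 (1.48), Isg15 (1.09), Il10 (0.863), Ccl7 (2.48), Ctss (0.855), Ctsf (1.7), Pltp (0.221), Lgals3bp (0.987), Cst3 (0.0554), Vax2 (3.27), Tlx3 (1.62), Enho (0.561), P2ry12 (1.63), Tmem119 (1.62), Cx3cr1 (1.83), Csf1r (1.13), Trem2 (2.16), Cd68 (1.27) and Mertk (2.96). The cause was not tested. Tyrobp was -0.196 with TMM factors and -0.24 with them and without replicate 3, and Mertk 0.186 with the background subtracted. On leaving out 1 replicate, Tmem119 ran from -0.559 to 0.0635, Tyrobp from -0.0585 to 0.131 and Mertk from -0.502 to 0.278. TPM gives no read depth, so no limit from depth can be stated.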
